A study of Mus musculus with 9 samples.

Results

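The TREM receptors and their signalling adaptors were followed across 3 treatments of mouse spleen-derived monocytes. They were taken as the entries of the expression table named Trem1, Trem2, Trem3, Treml2, Treml4, Tyrobp and Hcst, which gave 7 genes of 26770 in the table, 5 of them receptors and 2 adaptors. The cells were labelled wild type, came from the spleen, and were profiled by RNA sequencing as 9 libraries in 3 groups of 3. In the LPS with octanal group, cells were primed with a low dose of lipopolysaccharide (LPS, a bacterial cell wall component sensed by Toll-like receptor 4) and then given octanal, an aldehyde odorant, at 20 µM. In the LPS group, cells received LPS at 40 ng/ml for 5 hours. The untreated group received DMSO, the solvent. The sample labels give octanal for 18, 19 and 20 hours, and a DMSO dilution of 1 in 1000, 1001 and 1002, for replicates 1, 2 and 3, while the series text gives 18 hours and 1 in 1000 for all. The 3 libraries of a group were handled as equal. Octanal, the hours in culture and the solvent cannot be told apart here, because the labels do not match the groups for them. The same holds for LPS in LPS against untreated. There the labels give DMSO for the untreated group alone and hours for the LPS group alone. A fall under LPS is therefore a difference between these groups. The labels do not state whether a group's libraries come from different animals or cultures, so a p-value here speaks of the spread among these libraries, which may be technical. Strain and age are not stated in the labels.

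TREM proteins are single-span receptors of myeloid cells with 1 immunoglobulin-like domain outside the cell. TREM-1, TREM-2 and TREM-3 have short tails and signal through DAP12, the protein of Tyrobp, whose immunoreceptor tyrosine-based activation motif (ITAM) is phosphorylated by Src family kinases and then recruits the kinase Syk. DAP10, the protein of Hcst, carries a different tyrosine motif that recruits phosphoinositide 3-kinase. TREM-1 amplifies Toll-like receptor responses in monocytes and neutrophils, whereas TREM-2 is a lipid and apolipoprotein receptor of tissue macrophages and microglia that has been described as restraining such responses.

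The sites through which the adaptors signal are shown first, since all receptor signals of this set that use DAP12 or DAP10 pass through them. They are coding sequences of GENCODE release M21 on GRCm38, written 5′ to 3′ on the strand of the gene, with the codons of the signalling tyrosines in capitals. The Tyrobp stretch covers 45 bases of coding sequence with 2 tyrosine codons and lies within chr7:30415670-30417382 on the + strand, where an intron interrupts it. The Hcst stretch of 12 bases, with 1 tyrosine codon, lies at chr7:30417821-30417832 on the - strand.
Tyrobp ITAM: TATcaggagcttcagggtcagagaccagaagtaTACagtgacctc
Hcst tyrosine motif: TACatcaacatg

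Promoters are shown for Trem1 and Trem2, which fell together under LPS, and for Treml4, a neighbour that did not pass the test. These are RefSeq windows on GRCm38.p6 of 250 bases before and 50 bases after the start of the gene, and the table of them held 4 of the 7 members (Hcst besides the 3 shown). All windows were searched on both strands for GAGGAA (the core bound by PU.1, the master factor of myeloid cells), TGANTCA (AP-1), the NF-kappaB motif (GGG, 2 bases of any kind, then TTTCC) and TTGCNNAA (C/EBP), and capitals mark the matches, none of which overlap.
Trem1 promoter, chr17:48232489-48232788, + strand: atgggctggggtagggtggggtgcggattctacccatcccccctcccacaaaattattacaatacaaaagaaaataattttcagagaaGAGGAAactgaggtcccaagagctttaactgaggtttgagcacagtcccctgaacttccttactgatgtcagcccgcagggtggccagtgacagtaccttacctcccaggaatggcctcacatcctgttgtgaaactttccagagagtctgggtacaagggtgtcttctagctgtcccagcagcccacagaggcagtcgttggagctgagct
Trem2 promoter, chr17:48346151-48346450, + strand: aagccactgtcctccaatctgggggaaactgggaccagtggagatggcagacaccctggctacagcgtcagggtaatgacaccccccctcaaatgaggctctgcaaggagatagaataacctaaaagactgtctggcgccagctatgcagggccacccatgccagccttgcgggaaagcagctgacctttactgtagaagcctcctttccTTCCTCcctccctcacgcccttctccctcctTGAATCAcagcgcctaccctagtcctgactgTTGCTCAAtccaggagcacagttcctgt
Treml4 promoter, chr17:48264045-48264344, + strand: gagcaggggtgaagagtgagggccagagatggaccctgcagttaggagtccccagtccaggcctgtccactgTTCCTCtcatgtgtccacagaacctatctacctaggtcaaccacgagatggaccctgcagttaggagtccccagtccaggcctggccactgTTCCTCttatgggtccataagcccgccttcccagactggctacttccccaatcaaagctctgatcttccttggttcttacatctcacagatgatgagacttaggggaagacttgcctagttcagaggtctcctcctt

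The Trem1 window held 1 match to the PU.1 core, 162 bases before the start. The Trem2 window held 1 PU.1 core on the other strand (40 bases before the start), 1 AP-1 match (9 bases before) and 1 C/EBP match (22 bases after). The Treml4 window held 2 PU.1 cores on the other strand, 178 and 87 bases before the start, and the Hcst window held no match to any of the 4 motifs. Of 32817 mouse promoter windows of the same length, 28.3% held the PU.1 core, 7.81% the AP-1 motif, 1.63% the NF-kappaB motif and 10.8% the C/EBP motif. A match describes letters in a window and does not show binding.

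Under LPS the receptors Trem1, Trem2 and Trem3 and the adaptor Tyrobp fell. The receptors Treml2 and Treml4 and the adaptor Hcst did not pass the test. In the LPS with octanal libraries Trem1, Trem2, Trem3 and Tyrobp stood between the levels of LPS and untreated libraries by their means, Treml2 was the lowest of the 3 groups and Treml4 the highest. No difference between LPS with octanal and LPS passed the test. Trem2 and Treml2 were lower with octanal than in untreated libraries. Levels are given as CPM (counts scaled to a common library total after TMM), and differences as log2 fold changes with standard errors (SE) from edgeR. A gene was called where the adjusted p of edgeR's quasi-likelihood test, by Benjamini-Hochberg over 15447 genes, was under 0.05.

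**Figure D1:**
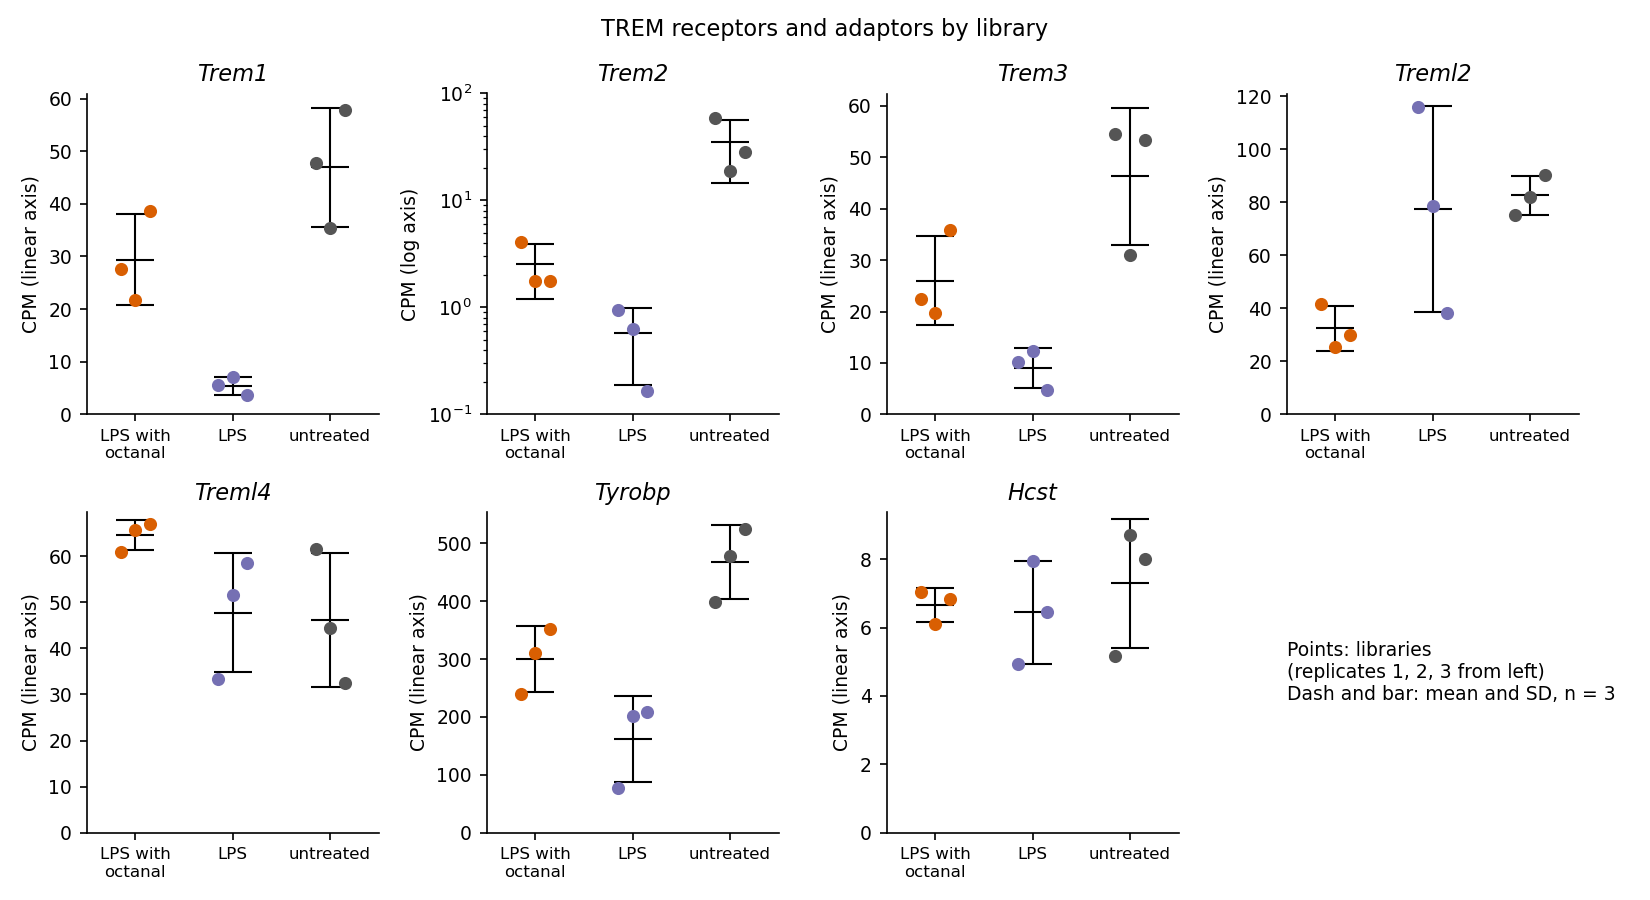
Levels of the 7 genes in each library, in CPM (linear axes from 0, except a log axis for Trem2). Points are libraries, and the dash with its bar is the mean ± SD of 3 libraries. The 3 LPS libraries were the lowest of the 9 for Trem1, Trem2, Trem3 and Tyrobp.

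Total counts were 29594291 to 38388421 per library, and all 7 genes passed the filter on low counts. The defining monocyte genes Ly6c2 and Ccr2 were low in treated cells. Ly6c2 was at 0.626 to 1.01 CPM with octanal and 0.387 to 7.90 CPM with LPS, and at 167.6, 2.82 and 249.1 CPM in untreated replicates 1, 2 and 3, so that untreated replicate 2 was below LPS replicate 1. Ccr2 averaged 1.5, 1.48 and 14.6 CPM in LPS with octanal, LPS and untreated libraries. The monocyte and macrophage receptor gene Csf1r averaged 379, 231 and 402 CPM in the same order. Markers of other cells were present too. The summed level of 15 neutrophil markers was 6163 to 13934 CPM with octanal, 1926 to 2374 CPM with LPS and 14420 to 28099 CPM in untreated libraries, and 14 of the 15 fell in LPS against untreated. The 11 T cell markers in the table summed to 859 to 1352, 1485 to 1779 and 147 to 763 CPM, and 11 of 11 rose in LPS against untreated. In that comparison 17.6% of all genes were called lower and 15.2% higher. All markers of both lists had counts in each group. Fewer cells of a type and less RNA per cell cannot be told apart in these bulk samples.

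Trem1 (ENSMUSG00000042265; GRCm38 chr17:48232768-48246924, + strand, protein-coding) codes for the receptor that amplifies inflammatory signals and binds the peptidoglycan recognition protein of Pglyrp1. Its level was 27.6, 21.8 and 38.7 CPM in LPS with octanal replicates 1, 2 and 3, 5.56, 7.11 and 3.65 CPM in the LPS replicates, and 47.7, 35.3 and 57.8 CPM in the untreated replicates. All LPS libraries were below all others, while the highest LPS with octanal library lay above the lowest untreated library. In LPS against untreated Trem1 fell by 8.64-fold (log2 -3.11, SE 0.316, adjusted p = 0.00068). With octanal against LPS it was 5.40-fold higher, with log2 2.43 (SE 0.309), and just missed the threshold of edgeR's test (adjusted p = 0.0508). Against untreated the log2 fold change with octanal was -0.68 (SE 0.291, adjusted p = 0.17). This difference from LPS lies close to the threshold: with 1 library left out, the adjusted p was 0.044, 0.057 and 0.15 without LPS with octanal replicates 1, 2 and 3, 0.22, 0.12 and 0.18 without LPS replicates 1, 2 and 3, and 0.049, 0.029 and 0.055 without untreated replicates 1, 2 and 3. Over 18 alternative settings Trem1 was called in 8 there, with log2 fold changes of 1.83 to 2.72.

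In these bulk libraries the order of Trem1 among replicates followed the neutrophil marker sum in the LPS with octanal group (8917, 6163 and 13934 CPM in replicates 1, 2 and 3) and in the untreated group (25200, 14420 and 28099 CPM). In the LPS group the sums were 1926, 2374 and 1955 CPM, and the lowest Trem1 level was in replicate 3, not in replicate 1. The neutrophil markers had a median log2 fold change of -4.65 in LPS against untreated and 1.95 with octanal against LPS, the same signs as Trem1. Their part in the Trem1 result was not tested.

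Trem2 (ENSMUSG00000023992; chr17:48346401-48354147, + strand, protein-coding), the lipid-sensing receptor, had the largest difference of the 7 genes. It was at 4.12, 1.75 and 1.78 CPM in LPS with octanal replicates 1, 2 and 3, at 0.952, 0.626 and 0.166 CPM in the LPS replicates, and at 58.7, 18.9 and 28.6 CPM in the untreated replicates. These rest on 143, 65 and 54 counts with octanal, 37, 20 and 6 counts with LPS, and 2181, 576 and 806 counts in untreated libraries. No libraries of different groups overlapped: untreated was highest in every case, then LPS with octanal, then LPS. Trem2 fell by 60.2-fold in LPS against untreated (log2 -5.91, SE 0.708, adjusted p = 0.0012). With octanal it was 13.9-fold lower than in untreated libraries (log2 -3.79, SE 0.624, adjusted p = 0.011). Relative to LPS it was 4.34-fold higher with octanal (log2 2.12, SE 0.647), and edgeR's test did not call it (adjusted p = 0.12). Over the alternatives this log2 fold change ran from 1.03 on log2 FPKM to 2.71 without LPS replicate 1. The fall under LPS went to -6.51 without LPS replicate 1, and the call with octanal against untreated was lost without LPS with octanal replicate 2 (-3.59, adjusted p = 0.055).

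Macrophage markers bear on Trem2, as tissue macrophages are its usual source. The 14 macrophage markers summed to 2616 to 2884 CPM with octanal, 1902 to 2656 CPM with LPS and 2443 to 3615 CPM in untreated libraries. Hmox1, the highest of the 14, averaged 1923, 1689 and 1814 CPM in the same order, so the sums say little of the other markers. In LPS against untreated 5 of the 14 fell and none rose, with a median log2 fold change of -1.50. There 10 were negative and 4 positive, and of all genes 17.6% were called lower and 15.2% higher. With octanal against untreated 6 of the 14 fell and 1 rose, with a median of -1.76, against 6.03% of all genes lower and 2.63% higher. All 14 had counts in each group, and their part in the Trem2 result was not tested.

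Trem3 (ENSMUSG00000041754; chr17:48247777-48258841, + strand, protein-coding) codes for a DAP12-coupled activating receptor of mouse macrophages and lies directly beside Trem1. Its level was 22.4, 19.8 and 35.9 CPM in LPS with octanal replicates 1, 2 and 3, 10.2, 12.3 and 4.65 CPM in the LPS replicates, and 54.6, 31.0 and 53.4 CPM in the untreated replicates. The LPS libraries were again below all others, and LPS with octanal and untreated libraries overlapped. In LPS against untreated Trem3 fell by 5.13-fold (log2 -2.36, SE 0.395, adjusted p = 0.0038). The log2 fold change with octanal against LPS was 1.53 (SE 0.386, adjusted p = 0.080 by edgeR), and that against untreated was -0.83 (SE 0.376, adjusted p = 0.19). Trem1 and Trem3 ran closest of any pair of members: their centred log2 CPM differed by a root mean square of 0.406 over the 9 libraries, against 0.484 to 2.60 for the other pairs.

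Treml2 (ENSMUSG00000071068; chr17:48299498-48312533, + strand, protein-coding), a TREM-like receptor of B cells and myeloid cells, was lowest with octanal. It was at 41.7, 25.5 and 30.0 CPM in LPS with octanal replicates 1, 2 and 3, at 115.8, 78.8 and 38.0 CPM in the LPS replicates, and at 75.3, 82.2 and 90.3 CPM in the untreated replicates. All LPS with octanal libraries were below all untreated ones, and LPS replicate 3 was below LPS with octanal replicate 1. The LPS group was the most scattered, at 77.5 ± 38.9 CPM against 82.6 ± 7.52 CPM in untreated libraries (SD, n = 3 each). With octanal Treml2 was 2.55-fold lower than in untreated libraries (log2 -1.35, SE 0.351, adjusted p = 0.048). With octanal against LPS the log2 fold change was -1.26 (SE 0.350, adjusted p = 0.098 by edgeR). In LPS against untreated it was -0.09 (SE 0.344, adjusted p = 0.86). The call against untreated was lost without any one of LPS with octanal replicates 1, 2 and 3 (adjusted p = 0.067, 0.16 and 0.12), LPS replicate 2 (0.073) or untreated replicates 1, 2 and 3 (0.094, 0.058 and 0.093). B cell markers, 8 in the table, summed to 79.4 to 107 CPM with octanal, 143 to 193 CPM with LPS and 103 to 347 CPM in untreated libraries. With octanal against untreated 3 of the 8 were lower, against 6.03% of all genes. The part of B cell markers in the Treml2 result was not tested.

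Treml4 (ENSMUSG00000051682; chr17:48264295-48275360, + strand, protein-coding) codes for a receptor of splenic macrophages and dendritic cells that binds dying cells. Its level was 60.9, 65.6 and 67.0 CPM in LPS with octanal replicates 1, 2 and 3, 33.4, 51.5 and 58.4 CPM in the LPS replicates, and 61.6, 44.4 and 32.6 CPM in the untreated replicates. The LPS with octanal libraries were all above the LPS libraries but overlapped the untreated ones. None of its differences was called by edgeR. Its log2 fold change with octanal against LPS was 0.43 (SE 0.251, adjusted p = 0.33). With LPS against untreated it was 0.05 (SE 0.250, adjusted p = 0.90), and with octanal against untreated 0.48 (SE 0.251, adjusted p = 0.24).

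Tyrobp (ENSMUSG00000030579; chr7:30413760-30417585, + strand, protein-coding), the gene of DAP12, was the most abundant member. It stood at 239.2, 310.3 and 352.4 CPM in LPS with octanal replicates 1, 2 and 3, at 77.0, 201.7 and 209.2 CPM in the LPS replicates, and at 399.1, 478.7 and 525 CPM in the untreated replicates. The 3 groups did not overlap, with untreated highest and LPS lowest, and LPS replicate 1 stood apart below the other LPS libraries. In LPS against untreated Tyrobp fell by 2.88-fold (log2 -1.52, SE 0.340, adjusted p = 0.012). The log2 fold change with octanal against LPS was 0.89 (SE 0.335, adjusted p = 0.17 by edgeR), and against untreated it was -0.64 (SE 0.334, adjusted p = 0.25). Without LPS replicate 1 the fall under LPS was -1.21 and remained past the threshold.

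Hcst (ENSMUSG00000064109; chr7:30417712-30419854, - strand, protein-coding), the gene of DAP10, varied least. It was at 7.05, 6.10 and 6.85 CPM in LPS with octanal replicates 1, 2 and 3, at 4.94, 7.95 and 6.45 CPM in the LPS replicates, and at 5.16, 8.71 and 8.004 CPM in the untreated replicates, on 192 to 266 counts a library. The 3 groups overlapped throughout. The log2 fold changes were 0.05 (SE 0.252) with octanal against LPS, -0.18 (SE 0.252) in LPS against untreated and -0.13 (SE 0.252) with octanal against untreated, with adjusted p of 0.92, 0.62 and 0.77 by edgeR. Hcst and Tyrobp end 126 bases apart on opposite strands. Whether the counting used strand is not stated, so reads that run past the end of either gene could be given to the other.

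**Figure D2:**
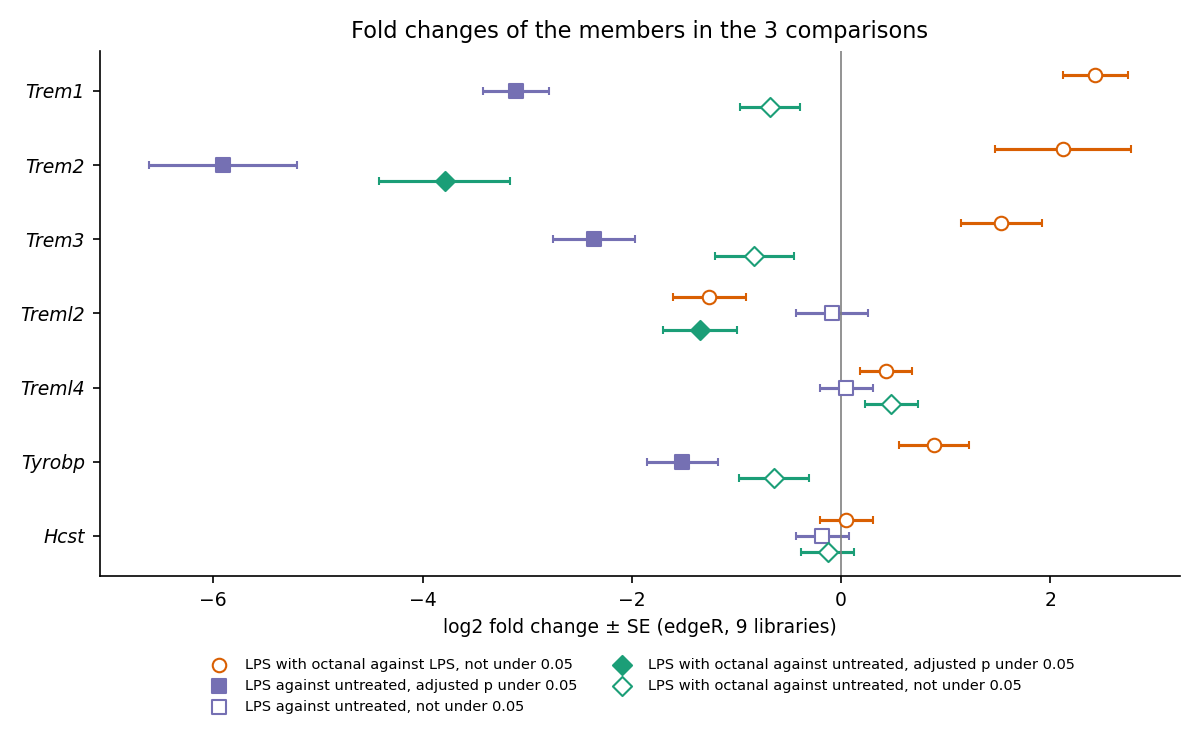
Log2 fold changes ± SE of the 7 genes from edgeR on 9 libraries, with filled symbols where the adjusted p was under 0.05. Trem1, Trem2, Trem3 and Tyrobp lie left of 0 for LPS against untreated and right of 0 for LPS with octanal against LPS, where no symbol is filled.

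Set against all genes, 4 of the 7 members were called lower in LPS against untreated and none higher. Of the 15447 genes tested, 17.6% were called lower and 15.2% higher there (32.8% in either direction). The libraries of the LPS and untreated groups did not overlap for 4 members, all lower with LPS, against 24.8% of all genes that were lower without overlap and 51.5% in either direction. With octanal against LPS edgeR called 0 of the 7 members and 0% of all genes. At an unadjusted p under 0.05 there were 5 members (Trem1, Trem2, Trem3 and Tyrobp higher, Treml2 lower), against 22.3% of all genes, and DESeq2 called 4 members, against 11.6% of all genes, while limma-voom called 0 members and 0% of all genes. No overlap was seen for 5 members, all higher with octanal, against 18.3% of all genes that were higher without overlap and 38.1% in either direction. With octanal against untreated 2 members were called, both lower, against 6.03% of all genes called lower, 2.63% higher and 8.67% in either direction, and 3 members were lower without overlap (Trem2, Treml2 and Tyrobp), against 16.3% of all genes (29.8% in either direction). LPS against untreated and LPS with octanal against LPS share the LPS libraries, on opposite sides, so opposite signs in them are not independent.

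Per gene length, levels of different genes can be set side by side in the FPKM (fragments scaled by transcript length and library depth) that the authors deposited. In LPS with octanal libraries Tyrobp led at 482 ± 78.7 FPKM, followed by Treml4 (35.6 ± 0.484), Trem3 (23.9 ± 7.38), Hcst (13.8 ± 1.25), Trem1 (8.99 ± 2.44), Treml2 (8.69 ± 2.57) and Trem2 (2.16 ± 1.23 FPKM; SD, n = 3). Trem1 and Treml2 did not differ beyond their spread there. In LPS libraries the order was Tyrobp (279 ± 126.3 FPKM), Treml4 (27.97 ± 7.70), Treml2 (22.4 ± 11.1), Hcst (14.9 ± 3.42), Trem3 (8.89 ± 3.83), Trem1 (1.80 ± 0.554) and Trem2 (0.508 ± 0.361). Treml4, Treml2 and Hcst lay within their spread of their neighbours in that order. In untreated libraries Tyrobp stood at 747 ± 96.4 FPKM, Trem3 at 42.2 ± 10.8, Trem2 at 29.8 ± 17.4, Treml4 at 25.3 ± 8.32, Treml2 at 22.3 ± 1.54, Hcst at 15.2 ± 4.20 and Trem1 at 14.3 ± 2.77. The middle of this order, Trem3 to Treml4, differed by less than the spread of Trem2, and Treml4 and Treml2, and Hcst and Trem1, differed by less than theirs.

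The make-up of the receptor pool differed between groups. Of the summed FPKM of the 5 receptors, Trem2 held 4.47, 2.12 and 1.63% in LPS with octanal replicates 1, 2 and 3, 1.298, 0.798 and 0.260% under LPS alone, and 29.5, 15.7 and 18.2% in the untreated replicates. The groups did not overlap. Treml4 held 43.7, 52.3 and 40.2% with octanal, 29.7, 44.4 and 66.9% with LPS, and 20.0, 23.8 and 13.4% in untreated libraries, so that it was the main receptor transcript of each LPS with octanal library and of LPS replicates 2 and 3. Treml2 led in LPS replicate 1, with 50.9%. The Tyrobp level was 26.4, 39.6 and 40.0 times that of Hcst with octanal, 11.4, 18.5 and 24.9 times with LPS, and 60.04, 42.8 and 49.5 times in untreated libraries, again without overlap.

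To remove the scaling between libraries, each member was set against Tyrobp in the same library, as the log2 ratio of counts with 0.5 added to each; this is a description without a test. Relative to Tyrobp, Trem1 stood at -3.38 ± 0.40 with octanal, -4.82 ± 1.02 with LPS and -3.34 ± 0.37 in untreated libraries (SD, n = 3 each). The octanal and untreated groups thus differed by -0.04, less than their spread, and both means lay above the LPS mean. LPS replicate 1, at -3.79, overlapped the octanal group but not the untreated one. Trem2 stood at -6.98 ± 0.98, -8.27 ± 1.93 and -3.88 ± 0.99 in the same groups, and the treated groups overlapped each other but not the untreated one. Trem3 stood at -3.56 ± 0.36, -4.15 ± 1.29 and -3.37 ± 0.54, with overlap of all groups. Hcst stood at -5.48 ± 0.34, -4.55 ± 0.54 and -6.03 ± 0.25, and Treml4 at -2.20 ± 0.21, -1.67 ± 0.41 and -3.38 ± 0.66. Both were highest relative to Tyrobp with LPS and lowest in untreated libraries, with no overlap of groups. For Treml4, however, LPS with octanal replicate 1 and LPS replicate 2 were nearly equal, both at -1.97. Tyrobp, the denominator, itself fell with LPS, while neither Hcst nor Treml4 passed the test on its own level. Set against Tyrobp and Fcer1g together, their differences between octanal and untreated were 0.71 for Treml4 and 0.08 for Hcst, instead of 1.18 and 0.55. Treml2 stood at -3.23 ± 0.61, -1.08 ± 1.54 and -2.50 ± 0.08. It was lower with octanal than with LPS in every library, by 2.15 in the means, and LPS replicate 1 alone was above 0 (0.59), with more Treml2 than Tyrobp counts.

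**Figure D3:**
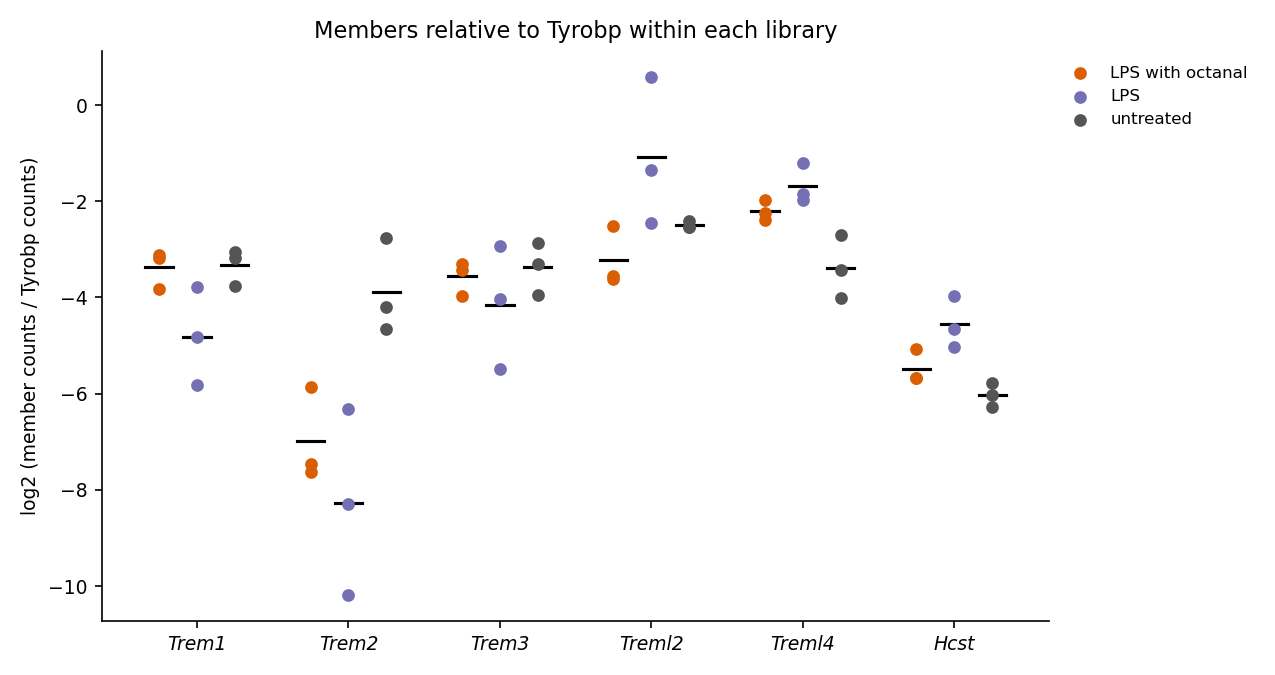
Log2 ratio of each member's counts to the counts of Tyrobp in the same library. Points are libraries and dashes are group means (n = 3). For Trem1 the LPS with octanal and untreated points share a range that LPS replicate 1 touches, whereas for Trem2 the untreated points lie above all treated ones.

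The 5 receptor genes lie within 121.4 kb on chromosome 17, all on the + strand, in the order Trem1, Trem3, Treml4, Treml2 and Trem2. Of the receptors that fell under LPS, Trem1 and Trem3 are neighbours, whereas Treml4 and Treml2, which did not pass, lie between Trem3 and Trem2. Between Treml2 and Trem2 lies B430306N03Rik (chr17:48316141-48327024), for which RefSeq gives the synonym Treml6. It stood at 155.1, 105.5 and 147.1 CPM in LPS with octanal replicates 1, 2 and 3, at 48.7, 44.6 and 21.1 CPM in the LPS replicates and at 241, 146.3 and 269.8 CPM in the untreated replicates. The LPS libraries were below all others, and the gene fell in LPS against untreated (log2 -2.52, adjusted p = 0.0018 by edgeR). With octanal against LPS its log2 fold change was 1.83 (adjusted p = 0.057). Of 6 tested neighbours outside the member set, 2 fell in LPS against untreated, where 17.6% of all genes were called lower. They were this gene and Nfya (log2 -0.60, adjusted p = 0.011), a subunit of the CCAAT-binding factor. Oard1, a deacylase gene of the same stretch, had log2 -0.03 (adjusted p = 0.87), and Treml1, the platelet member of the family, -0.74 (adjusted p = 0.45). In both octanal comparisons none of the 6 was called by edgeR.

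**Figure D4:**
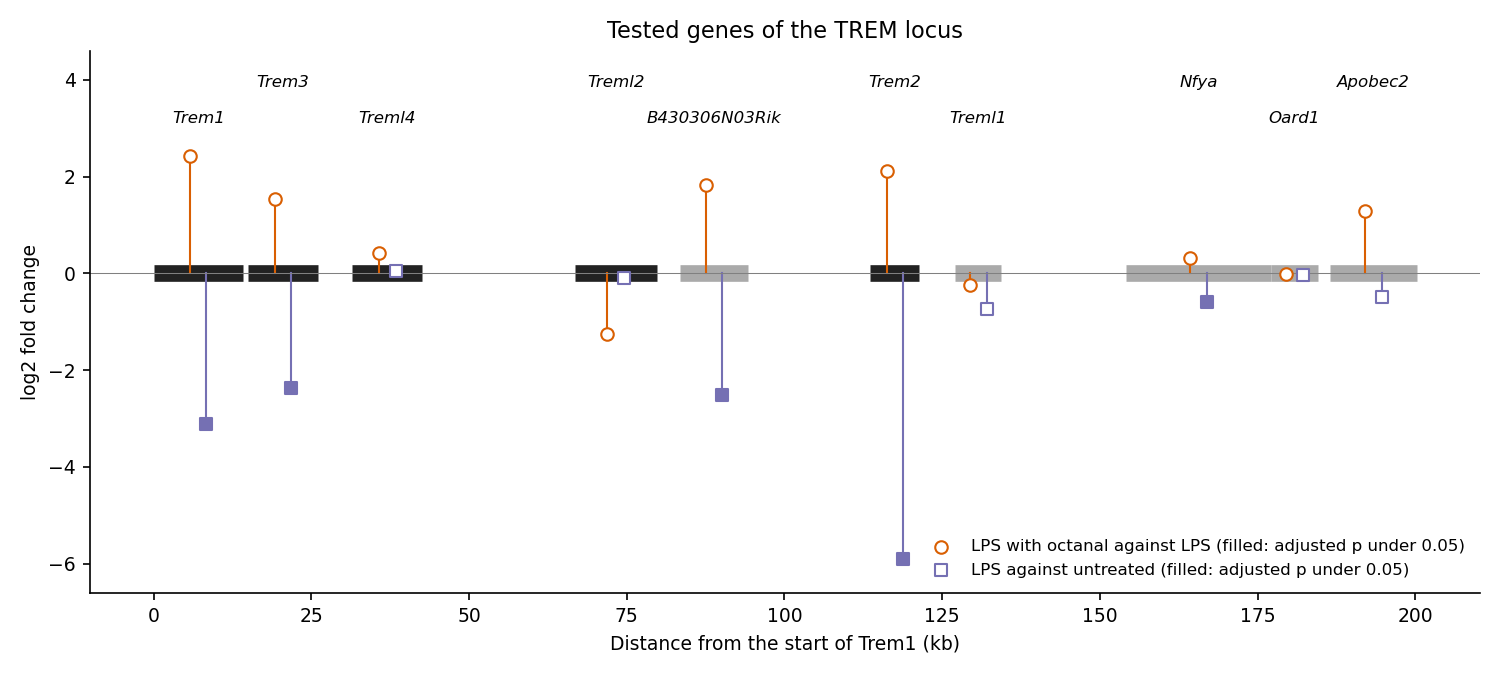
Tested genes along the TREM locus by distance from the start of Trem1 in kb, with members in black, neighbours in grey and log2 fold changes above or below each gene (filled where the adjusted p was under 0.05). Trem1, Trem3, B430306N03Rik, Trem2 and Nfya are filled for LPS against untreated, and no symbol is filled for LPS with octanal against LPS.

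Other receptors that pair with DAP12 or DAP10 came next. Of 14 tested, 6 fell and none rose in LPS against untreated, where 17.6% of all genes were called lower and 15.2% higher. The median log2 fold change was -0.74, against 0.01 over all genes. Cd300lb, an activating receptor of myeloid cells, fell by 2.36 on the log2 scale (adjusted p = 0.00095) and Clec5a, a lectin receptor of monocytes and neutrophils, by 1.55 (adjusted p = 0.0059). Between LPS with octanal and LPS edgeR called none, the median was 0.71 against -0.05 over all genes, and Clec5a had log2 1.76 (adjusted p = 0.053). Clec5a stood at 61.6, 80.6 and 97.1 CPM with octanal, 23.9, 24.7 and 22.1 CPM with LPS and 95.2, 39.7 and 72.3 CPM in untreated libraries. With octanal against untreated 2 of the 14 rose and 2 fell by edgeR, where 2.63% of all genes were called higher and 6.03% lower. Cd300lb was among those that fell (-1.16, adjusted p = 0.027). The rises were the paired receptor genes Pilrb1 and Pilrb2, by 1.58 (adjusted p = 0.0086) and 1.14 (adjusted p = 0.033). They had log2 0.22 and -0.23 in LPS against untreated (adjusted p = 0.51 and 0.53). Pilrb1 was at 55.0, 68.8 and 86.5 CPM with octanal, 21.2, 29.3 and 31.2 CPM with LPS and 22.4, 17.8 and 30.2 CPM in untreated libraries. These genes are close copies of each other, so reads may be shared between them.

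Of the 5 tested ligands of the TREM receptors, Pglyrp1, whose secreted granule protein binds TREM-1, was at 14.9, 3.76 and 31.4 CPM with octanal, 2.73, 3.35 and 1.25 CPM with LPS and 173.6, 76.9 and 140.7 CPM in untreated libraries. It fell by 5.74 on the log2 scale in LPS against untreated (adjusted p = 0.0018) and was lower with octanal against untreated (-2.97, adjusted p = 0.033). Apoe, the apolipoprotein bound by TREM-2, was at 150.9, 119.8 and 131 CPM with octanal, 109.9, 168.8 and 199.3 CPM with LPS and 1036, 661.1 and 518.8 CPM in untreated libraries. It fell in LPS against untreated (-2.21, adjusted p = 0.0015) and with octanal against untreated (-2.46, adjusted p = 0.0033), and the treated groups overlapped. Cirbp, whose extracellular protein binds TREM-1, rose in LPS against untreated (0.80, adjusted p = 0.034), while Hmgb1 (0.39, adjusted p = 0.34) and Clu (0.01, adjusted p = 0.99) did not pass. With octanal against LPS edgeR called none of the 5, and Pglyrp1 had log2 2.77 (adjusted p = 0.081). Pglyrp1 is itself a neutrophil granule gene, and the neutrophil sums given with Trem1 had the same order of groups. Among replicates the order matched in full only with octanal. In untreated libraries Pglyrp1 was highest in replicate 1 and the sum in replicate 3. In LPS libraries Pglyrp1 was lowest in replicate 3 and the sum in replicate 1. The part of neutrophil markers in the Pglyrp1 result was not tested. Among the sheddases and partners, Plxna1, the plexin that forms a complex with TREM-2, fell under LPS (-1.48, adjusted p = 0.0048), as did the sheddase Adam10 by 0.34 (adjusted p = 0.047), whereas Adam17 (-0.07, adjusted p = 0.83) and the semaphorin Sema6d (-0.45, adjusted p = 0.28) did not pass.

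Downstream of the ITAM, 15 of 27 kinase and adaptor genes fell and 5 rose in LPS against untreated, with a median of -0.54. Of all genes, 17.6% were called lower and 15.2% higher there, so the share of rises was near that of all genes. Lat2, the adaptor that DAP12 signalling phosphorylates in myeloid cells, fell by 3.13 (adjusted p = 0.00062), the kinase Btk by 1.36 (adjusted p = 0.00086), the exchange factor Vav3 by 0.98 (adjusted p = 0.0015) and Card9, which links Syk to NF-kappaB, by 1.79 (adjusted p = 0.0016). With octanal against untreated 3 rose and 4 fell, against 2.63% of all genes called higher and 6.03% lower. Of the 27, 20 had a positive log2 fold change with octanal against LPS and edgeR called none. The PI3K adaptor Pik3ap1 had 0.92 (adjusted p = 0.053).

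Of 10 inhibitors of ITAM signalling, 6 fell and 1 rose in LPS against untreated, with a median of -0.93. They included Inpp5d, the SHIP1 phosphatase (-1.13, adjusted p = 0.00062), the adaptor Dok3 that restrains DAP12 signals (-1.86, adjusted p = 0.00096), and the inhibitory receptors Pirb (-1.52, adjusted p = 0.0042) and Sirpa (-1.16, adjusted p = 0.0092). Activators and inhibitors of the ITAM were thus both mostly lower, where 17.6% of all genes were called lower and 15.2% higher. With octanal against untreated, Inpp5d was the 1 member of the 10 called, lower by 0.71 (adjusted p = 0.0068). This is near the 8.67% of all genes called there in either direction. The other activating chain of myeloid cells, Fcer1g, the Fc receptor gamma chain, stood at 359.8, 586.5 and 612.2 CPM with octanal, 148, 262.1 and 280.8 CPM with LPS and 437.9, 330 and 589 CPM in untreated libraries. It fell in LPS against untreated (-0.97, adjusted p = 0.040) and had log2 1.17 with octanal against LPS (adjusted p = 0.087). The T cell chain Cd247 rose in LPS against untreated (2.01, adjusted p = 0.043), as did the T cell markers described above.

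Genes of disease-associated microglia of the mouse brain, a state that needs TREM-2 to form in full, were used as a list of TREM-2-linked genes; some of them, such as Ctsb, Ctsd and Lyz2, belong to its early stage, which does not need TREM-2. Of the 20, 17 fell and 1 rose in LPS against untreated, with a median of -1.84, against 17.6% of all genes called lower and 15.2% higher. With octanal against untreated these shares of all genes were 6.03% and 2.63%. Gpnmb, a glycoprotein of lipid-laden macrophages, stood at 1713, 2311 and 1447 CPM with octanal, 404.6, 568.9 and 594.4 CPM with LPS and 6119, 3334 and 4747 CPM in untreated libraries, without overlap of groups. It fell by 3.18 in LPS against untreated (adjusted p = 0.00063). Lgals3 (-2.57, adjusted p = 0.00041), the fatty acid carrier Fabp5 (-2.70, adjusted p = 0.00066) and the inhibitor Timp2 (-1.63, adjusted p = 0.00062) fell as well. With octanal against untreated 8 of 20 were lower and none higher, with a median of -1.25, among them Gpnmb (-1.38, adjusted p = 0.023), Lgals3 (-1.52, adjusted p = 0.0039), Fabp5 (-2.13, adjusted p = 0.0040) and Timp2 (-1.41, adjusted p = 0.0019). With octanal against LPS the median was 0.81 and edgeR called none, with Gpnmb at 1.80 (adjusted p = 0.0508) and Lgals3 at 1.05 (adjusted p = 0.054). Macrophage markers, given with Trem2, fell in part in the same comparisons, and their part in this list was not tested.

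**Figure D5:**
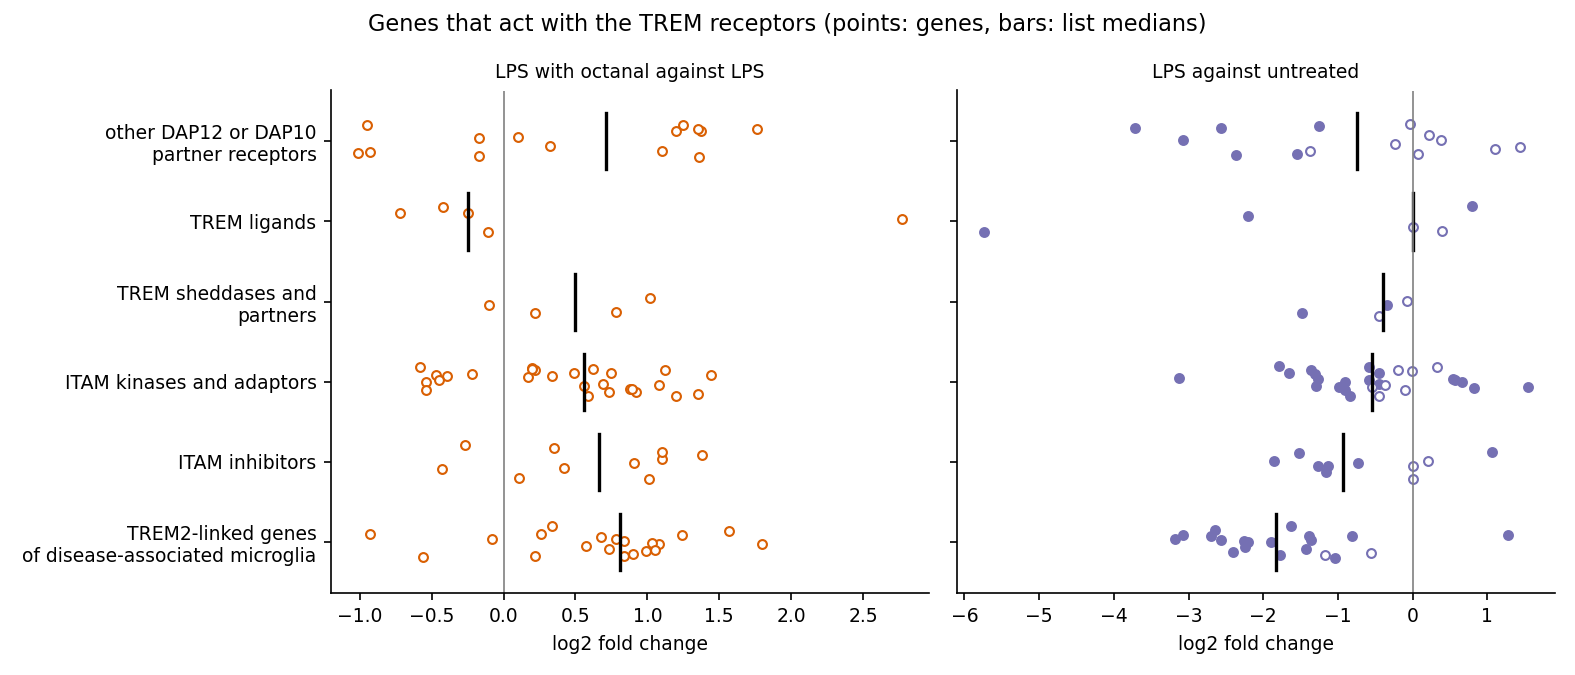
Log2 fold changes of genes that act with the TREM receptors, with 1 point per tested gene (filled where the adjusted p was under 0.05) and a bar at the median of each of the 6 lists drawn. In LPS against untreated the medians run from -1.84 to 0.01, and with octanal against LPS from -0.25 to 0.81 with no filled point.

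The genes whose profile was nearest to each member were sought among 9178 tested genes with at least 10 CPM in a group, by the root mean square difference of centred log2 CPM over the 9 libraries. Trem1 was closest to Olfml2a (0.291), Nfe2 (0.324), a transcription factor of blood cells, and the calcium-binding protein genes S100a9 (0.326) and S100a6 (0.336). S100a9 is one of the neutrophil markers above. Trem3 was closest to Cdca7 (0.257), Celsr3 (0.297), Nek2 (0.311) and the cyclooxygenase gene Ptgs1 (0.318). The genes nearest to Trem2 were farther off. They were Ltb4r1, a leukotriene B4 receptor gene (0.748), Lrg1 (0.754), the proton pump subunit gene Atp6v0d2 (0.763) and the monocyte gene F13a1 (0.808). The measure grows with how much a gene varies. Trem2 had the largest fold change of the members and rested on 6 to 37 counts with LPS. Tyrobp was closest to Nceh1 (0.265), Cd93 (0.268), the nuclear receptor gene Rxra (0.273) and Susd1 (0.287). Treml2 was nearest to Mcm6 (0.409), a subunit of the replication helicase, Ypel2 (0.431), Clu (0.452) and Plekha2 (0.469). Treml4, nearest to Itsn1 (0.154), Vmp1 (0.187), Cat (0.189) and Washc5 (0.197), and Hcst, nearest to Ddit3 (0.164), Fnbp1 (0.168), Inpp5k (0.171) and Ttc28 (0.171), had small differences because neither varied much. Nearness describes these 9 libraries only.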

How the data were processed

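Whole-number counts per gene and library were deposited without normalization, per the file headers; FPKM, scaled by the authors for gene length and depth, stand beside them. The submitters' processing notes name the build GRCm38. Which aligner, counter, annotation and strand setting were used is not given in the sources used here. Of 26770 entries, 22035 had Ensembl identifiers, of which 22021 matched GENCODE M21 (source of positions), and 4735 were NewGene loci; 10 text lines were left out.

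Counts were fitted with edgeR 4.0.16 under R 4.3.3 (TMM scaling of 0.923 to 1.07, filterByExpr by group, quasi-likelihood test with Benjamini-Hochberg adjustment, 9 libraries in 1 fit). The 15447 genes kept took 99.9% or more of the counts in any library. On simulated counts of these genes, the fit recovered 42 of 100 changes of 2-fold and 92 of 100 of 4-fold in LPS with octanal against LPS, with 4 false calls. These numbers were 44, 85 and 4 in LPS against untreated and 51, 91 and 6 in LPS with octanal against untreated. Every simulated gene had the spread typical of its level, and only 200 genes were changed. The real libraries need not match this setting, so these shares do not measure power for the members. In the deposited counts edgeR called 0 genes in LPS with octanal against LPS. Replicates differed by chi-squares of 45 to 152 per degree of freedom, so none looked like a library deposited again. Alternatives used limma 3.58.1 (voom, and trend on log2(FPKM + 1)) and DESeq2 1.42.0, other filters and scaling, 2 groups alone, a replicate block and leaving out each library.

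Members and lists were chosen with earlier results of these data known, so lists are described by counts and medians without a test. Named from each list were up to 4 tested genes of lowest p in LPS against untreated and up to 2 in LPS with octanal against LPS, all with at least 10 CPM; Treml1 was added after its values were seen. A gene that this rule names is not reported here. Treml4 is also on the non-classical monocyte list, Treml1 on the platelet list, Siglech on the dendritic cell, Klra8 on the NK cell and Axl on the macrophage list. Of the other marker lists, in LPS against untreated 8 of 13 classical monocyte genes fell and 1 rose, and 2 of 10 non-classical monocyte genes rose and 2 fell. In the same comparison 3 of 9 NK cell genes rose, and 1 of 8 dendritic cell genes and 5 of 5 eosinophil genes fell. There edgeR called none of 8 platelet and none of 8 B cell genes, against 17.6% of all genes lower and 15.2% higher.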

Additional observations from a re-analysis of the deposited data

How the results depend on the processing

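In LPS against untreated, the same 4 members were called under every alternative run, with log2 fold changes of -3.40 to -2.45 for Trem1, -6.51 to -4.24 for Trem2, -2.70 to -2.07 for Trem3 and -1.77 to -1.21 for Tyrobp. The count of all genes called there was 2387 to 5658 when 1 library was left out, with 2387, 3284 and 2926 without LPS replicates 1, 2 and 3. With log2 FPKM 58.9% of 5578 calls were rises, against 46.4% of 5072 from counts.

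In LPS with octanal against LPS, Trem1 alone was called (1 member) without a filter, with a filter at 10 CPM, with only both groups compared in the fit and without NewGene loci, and 4 members (Trem1, Trem2, Trem3 and Treml2) with DESeq2; leaving out 1 library gave 0 to 1. All genes called there were 279, 328, 1380, 118 and 1792 under the same settings, and 0 to 584 when 1 library was left out. Limma-voom, limma-trend on log2 FPKM and DESeq2 size factors left 0 members. In LPS with octanal against untreated, the adjusted p by limma-voom was 0.016 for Trem2 and 0.053 for Treml2. With the replicate block 1 member was called there (Trem2), and with 1 library left out 0 to 2. The count of all genes called with the replicate block is given below. Genes called there were 2810 with DESeq2, 404 with only both groups in the fit, and 298 to 2137 when 1 library was left out. The cause of these changes was not tested.

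Signs turned only for members that were not called: Hcst in LPS with octanal against LPS (-0.08 with log2 FPKM, and -0.09 to 0.27 with 1 library left out) and against untreated (-0.34 to 0.00), Treml2 in LPS against untreated (-0.52 to 0.21) and Treml4 there (-0.15 to 0.28, including -0.04, -0.14 and -0.00). Hcst was not tested with the filter at 10 CPM. Set against Tyrobp and Fcer1g together, Treml4 and Hcst in LPS with octanal against untreated differed by 0.71 and 0.08 instead of 1.18 and 0.55.

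Same-numbered libraries of different groups correlated by -0.0898 to 0.179 in their deviations from the group means, with 1 of 9 pairs over 0.1. That pair was LPS and LPS with octanal replicates 1 (0.179). By this measure 0 libraries matched their own number best in both other groups. No strong shared effect of the numbers was visible. Weak correlations among 3 libraries a group cannot show whether same-numbered libraries share an animal or culture. With the replicate block 4257, 0 and 923 genes were called in LPS against untreated, LPS with octanal against LPS and LPS with octanal against untreated. Depth limits Trem2 in LPS libraries most, at 6 to 37 counts.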
